A study of Mus musculus with 9 samples.

Results

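The transforming growth factor beta (TGF-beta) ligands Tgfb1, Tgfb2 and Tgfb3 and the receptors Tgfbr1, Tgfbr2 and Tgfbr3 were followed in mouse F9 cells given retinoic acid (RA) or trichostatin A (TSA). A probe set is a group of oligonucleotides read together on the array. The 6 genes were chosen with earlier results of these data known. Every probe set whose platform annotation names 1 of them was then taken, whatever its values. That gave 7 of the 12422 probe sets tested, and 6 of the 8251 genes named by a probe set with 1 symbol. Tgfb3 had 2 probe sets and the other genes 1 each. F9 is an established mouse embryonal carcinoma line, a tumour-derived stem cell that moves toward endoderm when given RA. TSA blocks histone deacetylases, enzymes that remove acetyl groups from histones. The 3 groups were F9 cells given RA at 0.5 µM, TSA at 0.07 µM, or the ethanol vehicle, each for 24 h and each on 3 arrays. All came from the same line. Nothing in the labels tells separate cultures from repeat arrays, so a p-value here covers the spread between arrays, possibly technical.

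TGF-beta ligands are secreted in a latent complex and act once they are released from it. The active dimer binds Tgfbr2, the type II receptor kinase, which then phosphorylates Tgfbr1, the type I kinase, and Tgfbr1 in turn phosphorylates Smad2 and Smad3. Tgfbr3, also called betaglycan, is a co-receptor without kinase activity that presents ligand, Tgfb2 above all, to Tgfbr2. The pathway restrains growth in many epithelial cells and raises matrix genes in fibroblasts, and a cell without Tgfbr2 cannot pass the signal on.

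Each value is a ratio to the mean of the 3 vehicle arrays for the same probe set, so the vehicle mean is 1 by construction and the brightness of a probe set is unknown. Levels of different genes therefore cannot be compared. Changes are differences of log2(ratio + 0.05), which understates changes of low values, and a probe set passed where limma's adjusted p was under 0.05 over all 12422 probe sets (Benjamini-Hochberg). The median log2 change of all probe sets was -0.12 in RA and -0.17 in TSA against vehicle. The array medians ran from 0.821 to 1.02. The arrays also differed in the median of 3 control probe sets for 18S ribosomal RNA, from 0.0336 on TSA replicate 1 to 2.40 on vehicle replicate 3. Of the 5 measured genes fixed as a check of the retinoid response, 5 passed as higher in RA and 2, Stra8 and Crabp2, in TSA. Of 14 endoderm genes (22 probe sets), Foxa1, Gata6 and Sox7 passed as higher in RA and Lama1 in TSA. Each passed on 1 probe set, and the other Gata6 probe sets did not pass. Of 10 genes of the undifferentiated state (12 probe sets), 5 passed as lower in RA and 3 in TSA. Over all probe sets, 0.934% passed as higher and 0.427% as lower in RA, and 2.21% and 1.27% in TSA. Because ratios carry no brightness, the presence of F9 markers could not be checked beyond these changes.

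2 of the 7 probe sets passed in TSA against vehicle, Tgfb1 as higher and Tgfbr2 as lower, where 3.48% of all probe sets passed (2.21% as higher and 1.27% as lower). The same 2 were the members with an unadjusted p under 0.05, against 19.6% of all probe sets, and the ones whose TSA and vehicle arrays did not overlap, against 26.3% of all. None of the 7 passed in RA against vehicle, where 1.36% of all did (0.934% as higher and 0.427% as lower). Tgfb1 and Tgfbr3 had an unadjusted p under 0.05 there, against 12.7% of all probe sets. In the direct comparison of RA with TSA, 2 passed, Tgfb1 as lower in RA and Tgfbr2 as higher in RA, where 3.91% of all probe sets passed (1.7% as higher and 2.21% as lower). In that comparison 17.1% of all had an unadjusted p under 0.05, and the arrays of 27.3% did not overlap, against these 2 members by each measure. The 3 comparisons share arrays, so their results are not independent of each other.

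The stretches of 250 bases before the annotated starts of Tgfb1 and Tgfbr2 are shown because these genes passed, in opposite directions, with TSA. Capitals mark the GC box, searched as GGGCGG or CCGCCC, and the CCAAT box, searched as CCAAT or ATTGG, so that both strands were covered. The sequences are from RefSeq on GRCm38.p6, Tgfb1 from the plus strand at chr7:25686752-25687001 and Tgfbr2 from the minus strand at chr9:116175364-116175613, each 5′ to 3′.
Tgfb1: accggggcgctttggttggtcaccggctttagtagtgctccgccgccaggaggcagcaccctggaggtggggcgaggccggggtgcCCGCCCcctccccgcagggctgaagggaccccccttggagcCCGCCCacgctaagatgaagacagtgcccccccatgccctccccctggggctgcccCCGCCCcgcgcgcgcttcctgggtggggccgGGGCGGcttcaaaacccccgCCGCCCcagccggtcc
Tgfbr2: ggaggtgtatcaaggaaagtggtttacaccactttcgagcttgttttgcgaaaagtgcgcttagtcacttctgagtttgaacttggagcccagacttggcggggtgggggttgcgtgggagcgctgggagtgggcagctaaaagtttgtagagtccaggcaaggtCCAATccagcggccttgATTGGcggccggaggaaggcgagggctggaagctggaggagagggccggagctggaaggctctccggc
The Tgfb1 window held 5 GC boxes and 0 CCAAT boxes and was 75.2% G or C. The Tgfbr2 window held 0 GC boxes and 2 CCAAT boxes and was 58.4% G or C. Among all 32851 windows of the same length, 32.7% held a GC box and 33.8% a CCAAT box. No match overlapped another in either gene. Tgfb2, at 53.6% G or C, had 0 GC boxes and 1 CCAAT box. Tgfbr1 has 2 annotated starts, 1 with 2 matches of each motif and 1 with none. Tgfb3 and Tgfbr3 were not matched. A match is a match of letters and not a shown binding site.

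Tgfb1, the first described of the 3 ligands, was the member with the largest change (probe set 101918_at). Its ratio was 0.259, 0.221 and 0.434 on RA replicates 1, 2 and 3, and 7.19, 10.5 and 7.35 on TSA replicates 1, 2 and 3, against 1.76, 0.567 and 0.670 on vehicle replicates 1, 2 and 3. The 3 groups were apart, with every TSA array above every vehicle array and every vehicle array above every RA array, though vehicle replicate 1 lay well above the other vehicle arrays. Tgfb1 averaged 8.35 ± 1.87 times the vehicle mean in TSA, where the vehicle arrays stood at 1 ± 0.662 (SD, n = 3 each). Tgfb1 rose in TSA by a log2 change of 3.15 ± 0.42 (SE), with an adjusted p of 0.00789 by limma with Benjamini-Hochberg adjustment. It ranked 48 among 12422 probe sets by the size of its rise. The call held in 19 of 21 alternative settings. It was lost with quantile normalisation (2.29, limma adjusted p = 0.164) and without the arrays numbered 3 in every group (3.05, adjusted p = 0.0851), a setting chosen after seeing the data. Without vehicle replicate 1, the highest of the vehicle arrays, the change in TSA was 3.63 (limma adjusted p = 0.00413).

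In RA, Tgfb1 averaged 0.305 ± 0.113 times the vehicle mean (SD, n = 3). The log2 change was -1.44 ± 0.42 (SE), with a 95% interval of -2.40 to -0.47, and did not pass after adjustment (unadjusted p = 0.00849, limma adjusted p = 0.174). The RA and vehicle arrays did not overlap, which held for 2 of the 7 members and 17% of all probe sets. Without vehicle replicate 1 the log2 change was -0.96. In the direct comparison, Tgfb1 was lower in RA than in TSA on every array, by a log2 change of -4.59 ± 0.42 (SE, limma adjusted p = 0.00150). The mean in TSA was 27.4 times the mean in RA. This difference ranked 6 among all 12422 probe sets in its direction and passed in 21 of 21 alternative settings, at -4.92 to -3.70. The order of Tgfb1 was thus TSA, vehicle, RA, and only the step between vehicle and RA did not pass the test.

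Tgfb2, the ligand that depends most on betaglycan, did not pass in any comparison (93300_at). It read 0.606, 0.676 and 0.907 on RA replicates 1 to 3, and 0.859, 0.675 and 1.61 on TSA replicates 1 to 3, against 0.828, 0.534 and 1.64 on vehicle replicates 1 to 3. The groups overlapped, and in each of them the array numbered 3 was the highest. The log2 change was -0.31 in RA, with a 95% interval of -1.30 to 0.68, and 0.11 in TSA, with an interval of -0.88 to 1.10. Limma's adjusted p was 0.829 in RA and 0.920 in TSA. These widths leave it unknown whether Tgfb2 was unchanged.

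The 2 probe sets of Tgfb3, the remaining ligand, did not give the same picture. On 102751_at it read 0.968, 1.07 and 1.29 on the RA arrays, and 0.987, 0.826 and 1.16 on the TSA arrays, against 0.753, 0.972 and 1.28 on the vehicle arrays. The groups overlapped throughout, and the log2 changes were 0.17 in RA (95% interval -0.39 to 0.72) and 0.0069 in TSA (interval -0.55 to 0.56). On 161382_at it read 0.517, 0.487 and 0.592 on the RA arrays, and 0.372, 1.41 and 0.539 on the TSA arrays, against 0.625, 1.31 and 1.06 on the vehicle arrays. Here all RA arrays lay below all vehicle arrays, while TSA replicate 2 stood apart from the other TSA arrays and above every vehicle array. The log2 change of 161382_at was -0.80 in RA (interval -1.82 to 0.23, limma adjusted p = 0.515) and -0.50 in TSA (interval -1.52 to 0.53, adjusted p = 0.593). Neither probe set of Tgfb3 passed in any comparison, and their changes in RA had opposite signs.

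**Figure D1:**
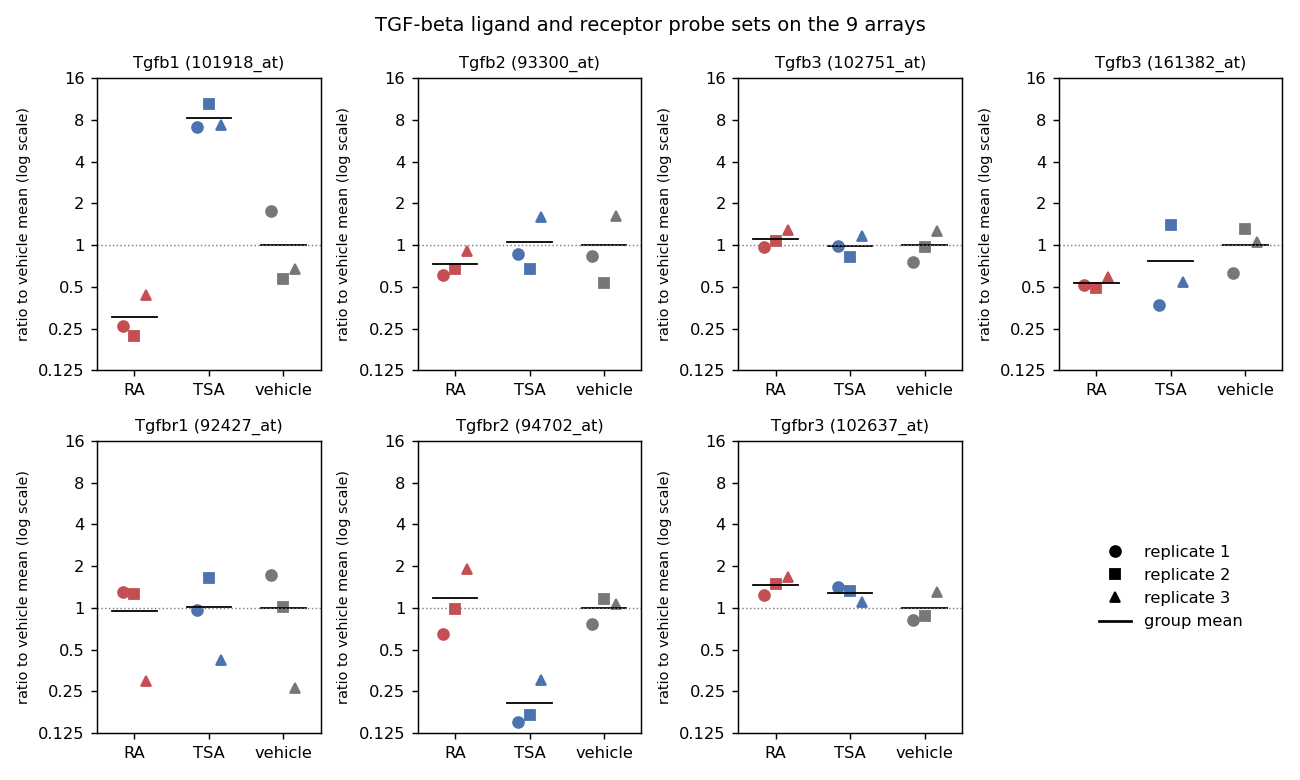
Ratio to the vehicle mean (log axis) of each of the 7 probe sets on the RA, TSA and vehicle arrays, with the replicate number as the marker and the group mean as a bar. Tgfb1 sits between 7.19 and 10.5 in TSA, above all other arrays, Tgfbr2 between 0.151 and 0.30 in TSA, below all other arrays, and Tgfbr1 is lowest on the array numbered 3 in each group.

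Tgfbr2, the ligand-binding type II receptor, was lower in TSA (94702_at). Its ratio was 0.646, 0.981 and 1.92 on RA replicates 1 to 3, and 0.151, 0.169 and 0.30 on TSA replicates 1 to 3, against 0.769, 1.17 and 1.06 on vehicle replicates 1 to 3. All TSA arrays lay below all vehicle and RA arrays, and the RA arrays spread to both sides of the vehicle arrays. Tgfbr2 averaged 0.206 ± 0.0812 in TSA, against 1 ± 0.207 on the vehicle arrays (SD, n = 3 each), so the vehicle mean was 4.84 times the TSA mean. It fell in TSA, with a log2 change of -2.06 ± 0.40 (SE) and a limma adjusted p of 0.0304, rank 39 among all falls. The sign was the same in 20 of 20 alternative settings, at -2.30 to -1.86, but the test passed in only 11 of them.

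The call of Tgfbr2 in TSA was lost in 7 of the 9 fits that left out 1 array. Limma's adjusted p reached 0.10 without TSA replicate 1, 0.131 without TSA replicate 2, 0.0523 without TSA replicate 3 and 0.0568 without RA replicate 2. Without vehicle replicates 1, 2 and 3 it was 0.0539, 0.105 and 0.0584. Quantile normalisation gave -1.89 (limma adjusted p = 0.0738). In RA the log2 change of Tgfbr2 was 0.12, with a 95% interval of -0.79 to 1.02 (limma adjusted p = 0.948). The direct comparison put Tgfbr2 higher in RA than in TSA, by 2.17 ± 0.40 (SE, limma adjusted p = 0.0215), and the mean in RA was 5.73 times that in TSA. That call held in 14 of 20 settings. Among the fits without 1 array it was lost without RA replicate 2 (adjusted p = 0.0717), TSA replicate 1 (0.0817) and TSA replicate 2 (0.0912). The order of Tgfbr2 was RA, vehicle, TSA, with no difference between RA and vehicle beyond their spread.

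**Figure D2:**
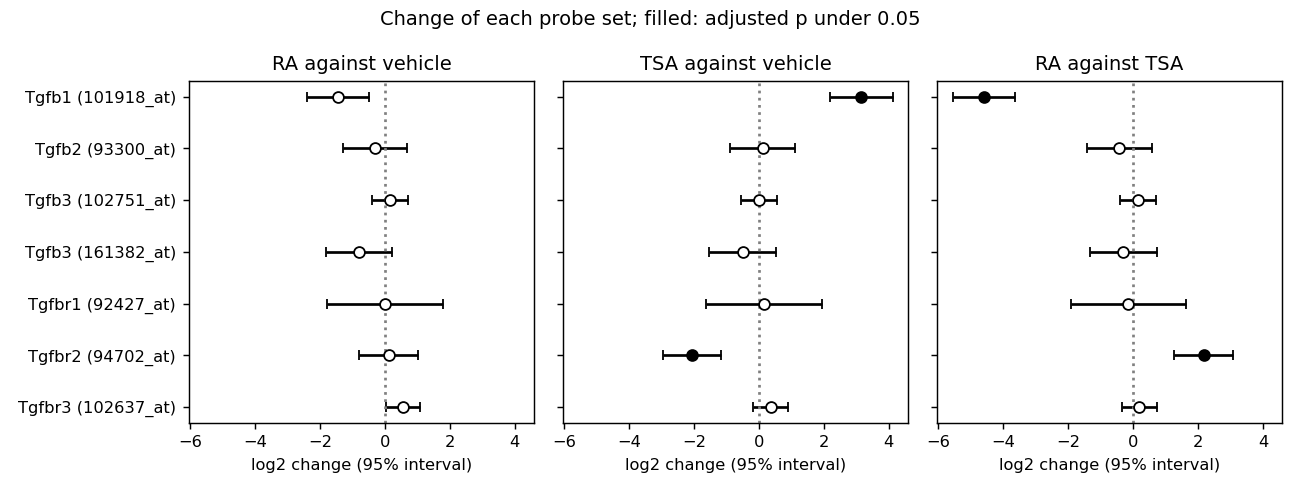
Log2 change of each probe set with its 95% interval in RA against vehicle, TSA against vehicle and RA against TSA, where filled points passed limma's test. In TSA against vehicle the filled points are Tgfb1 at 3.15 and Tgfbr2 at -2.06, and none is filled in RA against vehicle.

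Tgfbr1, the type I receptor kinase, did not pass in any comparison and varied with the replicate number (92427_at). It read 1.30, 1.25 and 0.298 on RA replicates 1 to 3, and 0.961, 1.65 and 0.423 on TSA replicates 1 to 3, against 1.71, 1.02 and 0.264 on vehicle replicates 1 to 3. The array numbered 3 was the lowest in each group, and the highest array of a group exceeded the lowest by 4.35 times in RA, 3.91 times in TSA and 6.50 times in vehicle. Across all probe sets, 12.3% were lowest on the array numbered 3 in all 3 groups, and 12.2% were highest there, Tgfb2 and 102751_at of Tgfb3 among them. For number 1 these shares were 4.85% and 9.52%, and for number 2 they were 2.89% and 1.49%. Tgfbr2 was lowest on the array numbered 1 in each group. The labels do not say what a number shares, and its part in these values was not tested. The median 18S control signal was 0.961, 0.0531 and 2.40 on the arrays numbered 3 of RA, TSA and vehicle, the highest of its group each time, though far lower in TSA than in the others.

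The log2 change of Tgfbr1 was 0.013 in RA and 0.15 in TSA, with 95% intervals of -1.77 to 1.80 and -1.63 to 1.93, the widest of the 7 probe sets. Between arrays of the same number it was -0.39, 0.28 and 0.15 for RA minus vehicle and -0.80, 0.67 and 0.59 for TSA minus vehicle. Neither treatment moved it one way in all 3 same-numbered differences, and limma's adjusted p was 0.997 in RA and 0.941 in TSA.

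Tgfbr3, the betaglycan co-receptor, did not pass in any comparison (102637_at). It read 1.25, 1.49 and 1.68 on RA replicates 1 to 3, and 1.42, 1.31 and 1.11 on TSA replicates 1 to 3, against 0.814, 0.874 and 1.31 on vehicle replicates 1 to 3. The RA and TSA arrays overlapped each other, and both overlapped the vehicle arrays only through vehicle replicate 3. The log2 change was 0.56 in RA (95% interval 0.022 to 1.09, limma adjusted p = 0.370) and 0.37 in TSA (interval -0.17 to 0.90, adjusted p = 0.441), and neither passed. Without vehicle replicate 3 the change in RA was 0.76 (limma adjusted p = 0.126). RA and TSA differed by 0.19, with an interval of -0.34 to 0.73.

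The probe sets most like Tgfb1 and Tgfbr2 were found by the root mean square difference of log2 values over the 9 arrays, among 10826 probe sets of other genes. For Tgfb1 these were Gngt2, a G protein gamma subunit (0.49), Thy1, a surface glycoprotein of fibroblasts and neurons (0.57), and Tns2, a focal adhesion protein (0.70). Gngt2 averaged 0.489 ± 0.0681 in RA and 8.40 ± 2.89 in TSA, against 1 ± 0.971 on the vehicle arrays (SD, n = 3 each). Its vehicle arrays read 2.12, 0.423 and 0.456, so that replicate 1 stood above the others as it did for Tgfb1. Thy1 averaged 0.342 ± 0.249 in RA and 7.06 ± 1.07 in TSA, against 1 ± 0.780 on the vehicle arrays (SD, n = 3 each). Tns2 did not share the high vehicle replicate 1, as its vehicle arrays read 0.959, 0.819 and 1.22.

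For Tgfbr2 the nearest were Kcnd2, a voltage-gated potassium channel (0.34), 1 of the probe sets of Csnk1d, a casein kinase (0.36), and Upp1, a uridine phosphorylase (0.48). Kcnd2 averaged 1.26 ± 0.600 in RA and 0.154 ± 0.0590 in TSA, against 1 ± 0.412 on the vehicle arrays (SD, n = 3 each). Like Tgfbr2, it was highest in RA replicate 3, at 1.93. Among the RA arrays, Csnk1d was also highest on replicate 3, at 1.07, but Upp1 was lowest there, at 0.822. The likeness describes these 9 arrays and was not tested. The neighbours were chosen on the same arrays, so highs and lows shared with a member follow in part from the choice.

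**Figure D3:**
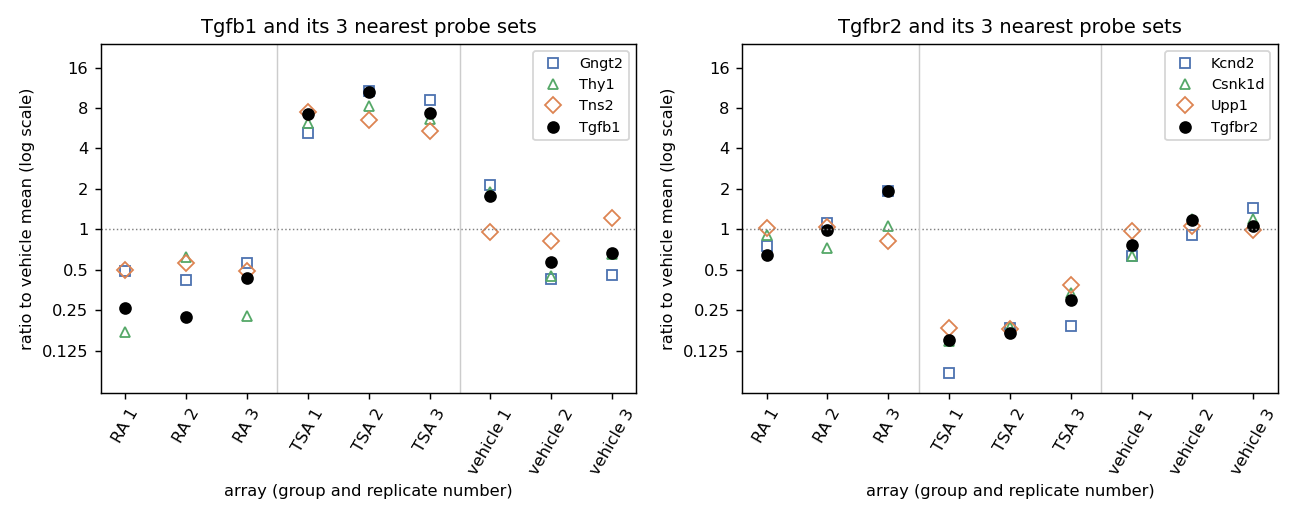
Ratio to the vehicle mean (log axis) on each of the 9 arrays for Tgfb1 (left) and Tgfbr2 (right), black circles, with the 3 probe sets nearest to each as open markers. Gngt2 and Thy1 follow Tgfb1 in its high vehicle replicate 1 as well as in TSA. Tns2 follows it in TSA, and its RA arrays also lie below its vehicle arrays, but its vehicle replicate 1 is not the highest. The neighbours were chosen on these same 9 arrays.

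Of 14 measured genes (20 probe sets) that hold TGF-beta latent or release it, 1 passed as higher in each treatment and none as lower. It was Plat, tissue plasminogen activator, a protease that cleaves plasminogen to plasmin, which can release latent TGF-beta. Plat read 6.65, 4.40 and 5.71 in RA, and 8.01, 20.5 and 8.94 in TSA, against 0.829, 0.501 and 1.67 on the vehicle arrays. Both treated groups lay above all vehicle arrays, while 17% of all probe sets in RA and 26.3% in TSA had no overlap with vehicle. The log2 change of Plat was 2.56 in RA (limma adjusted p = 0.0435) and 3.60 in TSA (adjusted p = 0.00783). In RA it passed in 8 of 21 settings, and in 2 of the 9 fits without 1 array. Ltbp1, a latent TGF-beta binding protein, did not pass, at -0.22 in RA and 0.34 in TSA. TSA replicate 3 of Ltbp1 read 3.47, against 0.514 and 0.896 on the other TSA arrays. The median log2 change of the list was -0.077 in RA and -0.097 in TSA. Of its 20 probe sets, 1 in RA and 6 in TSA had an unadjusted limma p under 0.05. Over all probe sets these shares were 12.7% and 19.6%, and 0.934% in RA and 2.21% in TSA passed as higher.

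Of 8 measured genes (13 probe sets) for co-receptors and extracellular binders, Nrp1, a neuropilin that can bind TGF-beta, passed in RA on 1 of its 2 probe sets. On 92773_at it averaged 3.02 ± 0.376 in RA, against 1 ± 0.282 on the vehicle arrays (SD, n = 3 each), a log2 change of 1.57 (limma adjusted p = 0.0202) that held in 13 of 21 settings. Over all probe sets, 0.934% passed as higher in RA. None of the 13 passed limma's test in TSA, where 3.48% of all did. At an unadjusted limma p under 0.05 were 2 of the 13 in RA and 1 in TSA, against 12.7% and 19.6% of all. Eng, the endothelial co-receptor endoglin, read 0.958, 0.843 and 0.596 in RA, and 0.845, 0.582 and 0.852 in TSA, against 1.17, 1.10 and 0.736 on the vehicle arrays, and did not pass. The list's median log2 change was -0.027 in RA and -0.099 in TSA. None of 9 measured receptor-associated genes of the cytoplasm (18 probe sets) passed limma's test, where 1.36% of all did in RA and 3.48% in TSA. Of these 18, 0 in RA and 2 in TSA had an unadjusted limma p under 0.05, against the same 12.7% and 19.6% of all. The median changes were -0.19 in RA and 0.20 in TSA.

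Among 7 measured Smads (8 probe sets), the signal carriers of the family, only the inhibitory Smad6 passed, in RA. It read 2.78, 2.65 and 2.82 in RA, and 1.49, 1.65 and 1.93 in TSA, against 0.754, 0.878 and 1.37 on the vehicle arrays. Both treated groups lay above the vehicle arrays, a lack of overlap seen for 17% of all probe sets in RA and 26.3% in TSA. The log2 change of Smad6 in RA was 1.46 ± 0.24 (SE, limma adjusted p = 0.0255). That call held in 12 of 21 settings and in 2 of the 9 fits without 1 array. Smad2 and Smad3, which Tgfbr1 phosphorylates, had log2 changes of 0.44 and 0.51 in RA and -0.077 and -0.26 in TSA, and none passed. Their partner Smad4 stood at -0.0052 in RA and -0.22 in TSA, where the sign in RA turned after centring the arrays or quantile normalisation.

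Smad7, the inhibitor that TGF-beta itself induces, read 0.752, 0.615 and 0.753 in RA, and 0.727, 0.601 and 0.477 in TSA, against 1.21, 0.807 and 0.988 on the vehicle arrays. All treated arrays lay below the vehicle arrays, and 17% of all probe sets in RA and 26.3% in TSA likewise had no overlap with vehicle. The log2 changes of Smad7, -0.46 in RA (limma adjusted p = 0.451) and -0.69 in TSA (adjusted p = 0.146), did not pass. The median of the Smad list was 0.27 in RA and -0.24 in TSA. Of its 8 probe sets, 1 in RA and 2 in TSA had an unadjusted limma p under 0.05. In the list of inhibitors and corepressors, 9 genes on 11 probe sets with Smad6 and Smad7 also in it, Smad6 in RA was the only one to pass against vehicle. The median of this list was -0.23 in RA and -0.025 in TSA. Of its 11 probe sets, 4 in RA and 4 in TSA had an unadjusted limma p under 0.05. Over all probe sets these shares were 12.7% in RA and 19.6% in TSA, and 0.934% passed as higher in RA.

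Of 34 measured genes (47 probe sets) known as TGF-beta targets in other cell types, 8 passed as higher and 2 as lower in TSA, where 2.21% and 1.27% of all probe sets did. In RA 1 passed as higher and 1 as lower, where 0.934% and 0.427% of all did, so the RA count lay near that over all probe sets. At an unadjusted limma p under 0.05 were 20 of the 47 in TSA and 8 in RA, against 19.6% and 12.7% of all. The list was chosen with earlier results of these data known. The median log2 change of the targets was 0.30 in TSA and 0.016 in RA. The list holds genes that TGF-beta raises and genes that it lowers, so these counts and medians have no expected direction. Whether the pathway was more or less active was not tested. Among those with the smallest adjusted p in TSA were Col1a1, a chain of fibrillar collagen, Id3, an inhibitor of helix-loop-helix factors, the smooth muscle protein Cnn1 and the matrix collagen Col5a1. Col1a1 rose on 94305_at by 4.31 (limma adjusted p = 0.00619) but its other probe set, 103709_at, did not pass. Id3 read 3.40, 5.00 and 4.66 in TSA, against 0.980, 0.995 and 1.02 on the vehicle arrays, a log2 change of 2.05 (limma adjusted p = 0.00619). Cnn1 rose by 3.18 (limma adjusted p = 0.00723) and Col5a1 by 1.78 on 101080_at, while its other probe set did not pass.

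Cdkn2b, a cyclin-dependent kinase inhibitor that TGF-beta induces in epithelial cells, read 9.11, 11.1 and 6.33 in TSA, against 0.751, 1.28 and 0.973 on the vehicle arrays. It rose by 3.08 in TSA (limma adjusted p = 0.00827), with 0.66 in RA (adjusted p = 0.569). Ccn2, Cdkn1a and Id1 were the other targets higher in TSA, though the other Cdkn1a probe set did not pass. Tgfbi and Bhlhe40 were the ones lower. Tgfbi, a matrix protein named for its induction by TGF-beta, read 0.275, 0.438 and 0.341 in TSA, against 0.920, 0.747 and 1.33 on the vehicle arrays, on 92877_at. Every TSA array lay below every vehicle array, where 26.3% of all probe sets had no overlap between these groups. The log2 change of Tgfbi on 92877_at was -1.37 (limma adjusted p = 0.0306). Its other probe set, 161157_r_at, read 1.23, 1.02 and 0.609 in TSA, against 0.512, 0.873 and 1.62 on the vehicle arrays, overlapped between the groups and did not pass, with a log2 change of 0.023. Tgfbi, Ccn2, Cdkn1a, Id1 and Bhlhe40 were named after their values were seen.

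In RA the target that passed as higher was Tgfb1i1, a focal adhesion adaptor found as a TGF-beta-induced gene. It read 5.82, 5.52 and 5.64 in RA, and 1.5, 1.68 and 1.77 in TSA, against 1.29, 0.779 and 0.932 on the vehicle arrays. Tgfb1i1 rose in RA by a log2 change of 2.47 ± 0.21 (SE, limma adjusted p = 0.00160). Myc, a growth regulator that TGF-beta lowers in epithelial cells, fell in RA by a log2 change of -2.39 (limma adjusted p = 0.00316).

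Some of the targets also mark other cell types, and 8 of them are in the fixed list for fibroblasts, smooth muscle and feeder cells. Of the 15 measured genes of that list (25 probe sets), Col1a1, Col5a1, Cnn1 and Thy1 passed as higher in TSA and none as lower, and Fbln1 passed as higher in RA on 2 probe sets. The summed ratio of its probe sets was 33.2 to 34.1 on the RA arrays and 51.2 to 78.7 on the TSA arrays, against 20.0 to 32.7 on the vehicle arrays. A few probe sets made up much of the sum in TSA, with Col1a1 at 14.0 to 26.8 on 94305_at. The median log2 change of the list was 0.013 in RA and 0.095 in TSA. Of its 25 probe sets, 9 in RA and 8 in TSA had an unadjusted limma p under 0.05. Over all probe sets, 12.7% in RA and 19.6% in TSA had such a p, and 0.934% in RA and 2.21% in TSA passed as higher. Endothelial markers summed to 5.65 to 10.9 in RA and 7.37 to 15.6 in TSA, against 4.22 to 8.52 on the vehicle arrays, and none of 6 probe sets passed limma's test (0 in RA and 1 in TSA at an unadjusted p under 0.05). Blood and immune markers summed to 7.81 to 12.8 in RA and 11.3 to 15.9 in TSA, against 9.59 to 16.7 on the vehicle arrays, and none of 12 probe sets passed limma's test or had an unadjusted p under 0.05. With ratios alone it cannot be said which markers were near background. More cells of another type and more RNA per cell cannot be told apart in bulk RNA, and the part of these markers in the rise of Tgfb1 and the matrix genes was not tested.

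**Figure D4:**
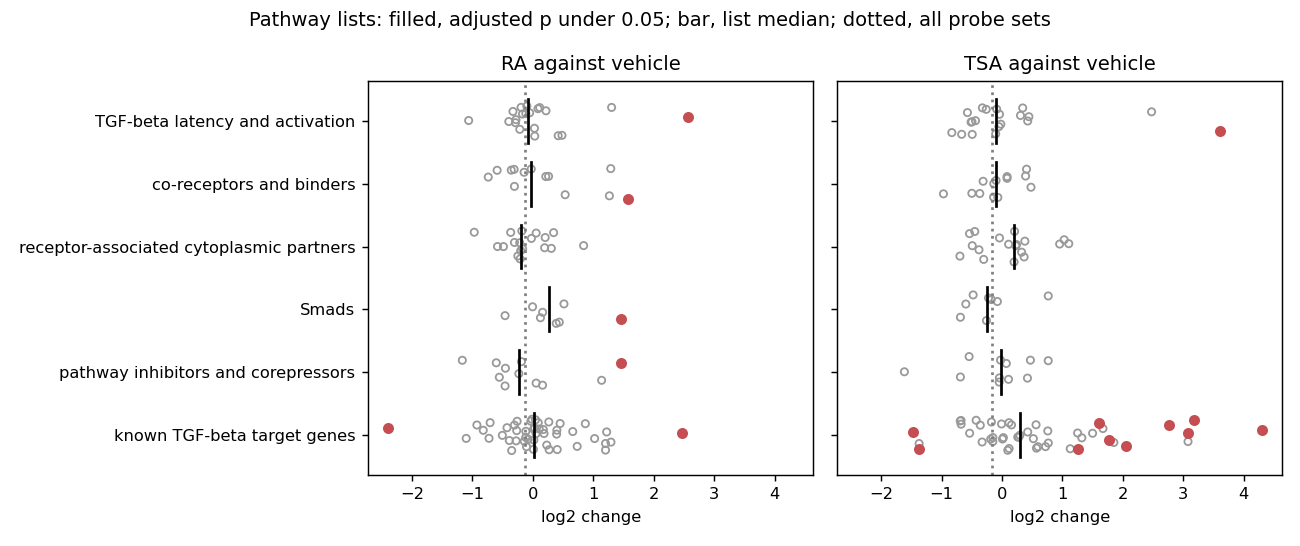
Log2 change of every probe set of the 6 pathway lists in RA and TSA against vehicle, filled where it passed limma's test, with a bar at the list median and a dotted line at the median of all probe sets (-0.12 and -0.17). Of the 47 probe sets of target genes in TSA, 8 filled points lie above 0 and 2 below, where 2.21% and 1.27% of all probe sets passed. The other lists are smaller, with 8 to 20 probe sets, and have few filled points. All lists were chosen with earlier results of these data known.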

How the data were processed

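RNA of F9 cells was hybridised to 9 oligonucleotide arrays, 3 per group, with groups and replicate numbers taken from the sample titles. Per the labels, data were entered into GeneSpring; the sources used here do not give other steps before deposit. The deposited values are linear ratios: in all 12488 probe sets the 3 vehicle arrays average 1 within 1e-05, so the authors' ratio is to the vehicle mean. The 66 control probe sets were left out. Symbols came from the platform annotation, updated by Entrez ID to RefSeq (GRCm38.p6): 10833 probe sets had 1 symbol, 396 several and 1193 none, and only those with 1 were named.

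One limma fit (version 3.58.1, R 4.3.3) of log2(ratio + 0.05) over all 9 arrays gave the 3 comparisons, with eBayes without a trend, 6 residual degrees of freedom and Benjamini-Hochberg adjustment over 12422 probe sets. Precision is limited by the number of arrays. The fit was also run on simulated data with known changes in RA against vehicle, and no recovery rate is given here. The simulated errors were independent between arrays, so that run did not cover deviations shared by arrays. The members, lists and naming rule were chosen with earlier results of these data known. All member probe sets were named, with up to 4 passing probe sets of each pathway list per treatment, with Smad2, Smad3, Smad4, Smad7, Eng, Cdkn2b and Ltbp1 whatever their values, and with 3 nearest probe sets for each passing member.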

Additional observations from a re-analysis of the deposited data

How the results depend on the processing

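Alternatives were pseudocounts of 0.01 and 0.1, quantile normalisation, centring, leaving out the 30% of probe sets with the lowest mean, fits on 6 arrays, a variance trend, a replicate block, array weights (gene by gene, as the default did not converge), genes in place of probe sets, leaving out each array, and leaving out both vehicle replicate 3 and RA replicate 3. Leaving out all arrays numbered 3 was added after seeing the data. The 30% filter removed Tgfbr2 and 161382_at of Tgfb3. Every vehicle mean is 1, so the mean it used follows the RA and TSA ratios and not brightness. Tgfbr2, at 0.206 in TSA, was removed through its low TSA ratios, so its absence there is no check of its call. The causes of the shifts below were not tested, beyond the fewer arrays or probe sets some settings use.

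Probe sets changed in RA, 169, became 87 with quantile normalisation, 61 from 6 arrays, 111 with the trend, 549 with array weights, 98 without vehicle and RA replicates 3, 37 without all arrays numbered 3, and 54 to 209 without 1 array. In TSA, 432 became 108 with quantile normalisation, 168 from 6 arrays, 1771 with weights, 73 without the arrays numbered 3, and 107 to 494 without 1 array. In RA against TSA, 486 became 152 with quantile normalisation, 890 with weights, 119 without the arrays numbered 3, and 167 to 624 without 1 array. The count of TGF-beta probe sets, 2 in TSA, was 0 with quantile normalisation, 1 with the filter, 0 without the arrays numbered 3, and 1 to 2 without 1 array. For RA against TSA it was also 2, and became 1 with quantile normalisation, 1 with the filter, 1 without vehicle and RA replicates 3, 1 without the arrays numbered 3, and 1 to 2 without 1 array. In RA it was 0 in every setting run.

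Same-numbered arrays of different groups had deviations correlated at -0.032 to 0.29 and differently numbered ones at -0.30 to 0.17. The pairs numbered 3 correlated at 0.19, 0.29 and 0.24, but not every same-numbered pair was over 0.1, so the numbers were not taken as pairs. A replicate block gave 141 probe sets in RA, 438 in TSA, 455 in RA against TSA, and 0, 2 and 2 TGF-beta probe sets in the 3 comparisons; it ended the call of Plat in RA (limma adjusted p = 0.0978).

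Signs turned only in changes that did not pass. In RA, array weights gave 0.14 for Tgfb2, -0.069 for Tgfbr1 and -0.14 for Tgfbr2, and Smad4 was 0.10 with quantile normalisation and 0.15 after centring. In TSA, weights gave -0.10 for Tgfbr1 and 0.32 for Smad3, quantile normalisation 0.063 for Smad2 and 0.00010 for Smad3, and centring 0.12 for Smad2. In RA against TSA, weights gave 0.034 for Tgfbr1. Averaging its probe sets gave Tgfb3 -0.32 in RA, -0.25 in TSA and -0.069 in RA against TSA. Without vehicle and RA replicates 3, Tgfbr1 was -0.054 in RA, -0.56 in TSA and 0.50 in RA against TSA, and Tgfbr2 was -0.24 in RA. Without the arrays numbered 3, Tgfbr1 was -0.054, -0.067 and 0.013, Tgfbr2 -0.24 in RA, Ltbp1 -0.62 in TSA and Tgfbr3 -0.0020 in RA against TSA. Leaving out 1 array gave, in RA, -0.70 to 0.66 for Tgfbr1, -0.29 to 0.46 for Tgfbr2, -0.013 to 0.35 for 102751_at of Tgfb3, -0.66 to 0.10 for Tgfb2, -0.42 to 0.17 for Ltbp1 (-0.47, with its sign kept, without vehicle and RA replicates 3) and -0.33 to 0.22 for Smad4. In TSA it gave -0.56 to 0.69 for Tgfbr1, -0.24 to 0.52 for Tgfb2, -0.17 to 0.19 for 102751_at, -0.42 to 0.91 for Ltbp1, -0.26 to 0.058 for Smad2, -0.64 to 0.072 for Smad3 and -0.55 to 0.0041 for Smad4. In RA against TSA it gave -0.63 to 0.50 for Tgfbr1 and -0.68 to 0.22 for 161382_at.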

Other observations

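In RA against TSA, 4 of 47 probe sets of TGF-beta target genes were higher in RA and 10 lower. Of all probe sets 3.91% passed, 1.7% as higher and 2.21% as lower in RA. These genes were named after their values were seen. Jun, an AP-1 subunit, read 2.59, 2.04 and 2.90 in RA, against 0.603, 1.12 and 0.306 in TSA, a log2 change of 1.97 (limma adjusted p = 0.0332). Klf10, a TGF-beta-inducible zinc finger factor, read 0.517, 0.507 and 0.757 in RA on 99602_at, against 1.23, 1.28 and 1.16 in TSA, a log2 change of -1.0 (limma adjusted p = 0.0296). Every TSA array of Klf10 lay above every RA array, while its second probe set did not pass. Cdkn1a was lower in RA than in TSA on both probe sets, by -1.93 and -1.99. Among the 11 probe sets of inhibitors and corepressors, only 1 passed, that of Ski, a Smad corepressor. Ski read 2.56, 2.32 and 1.87 in RA, against 1.12, 1.03 and 0.791 in TSA, a log2 change of 1.16 (limma adjusted p = 0.0281). Its RA and TSA arrays did not overlap, which held for 27.3% of all probe sets.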
